A study of Mus musculus with 6 samples.

Results

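Glp1r and Cck, a receptor for a gut peptide hormone and the precursor of another, were both far more abundant in E11.5 hearts with reduced Nkx2-5 than in control hearts. The pair was chosen by gene symbol, and it was selected on its large differences in this same comparison, so those differences are given as a description and carry no test. They are 2 of the 1577 genes in the authors' table. The 3 WT hearts were control littermates and the 3 Hypomorph hearts came from a line with hypomorphic, that is reduced, expression of the homeobox gene Nkx2-5, all on a C57BL/6 background and all at stage E11.5. The study's methods name 2 lines carrying altered alleles, Nkx2-5-gfp and Nkx2-5-IRES-Cre, and the labels do not state which alleles a single heart carried. RNA was taken from whole hearts, so fewer cells of a type and less RNA per cell cannot be told apart. The table lists only genes that passed the authors' test and a fold change of 1.5, and for each it gives 1 value per group. The spread between hearts is therefore unknown, no difference below can be set against it, and no p-value was computed. A gene that is not listed may be unchanged or too low to count.

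Glp1r encodes the receptor for glucagon-like peptide 1, a gut hormone cut from proglucagon, the product of Gcg. It belongs to the class B family of receptors for peptide hormones, couples to the G protein Gs and raises cyclic AMP, and it is best known from the pancreatic islet, where it increases insulin secretion. Cck encodes the precursor of cholecystokinin, which is released from the duodenum after a meal to contract the gall bladder, and which is also an abundant peptide of brain neurons. Cholecystokinin acts through Cckar and Cckbr, receptors that couple to Gq and release calcium. In the adult mouse heart, Glp1r is known from atrial muscle.

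Since both genes were higher in Hypomorph hearts, the sequences just before their transcription starts are shown, as the stretches in which binding sites of factors such as NKX2-5 and MEIS1 would be looked for first. They are RefSeq promoters, listed there on GRCm38.p6 and placed on mm9, the build of the study, by an exact match found once for each. The 250 bases before the RefSeq start of Glp1r lie at chr17:31038562-31038811 on the plus strand, and those of Cck at chr9:121404813-121405062 on the minus strand. The GENCODE annotation of mm9, used below for gene positions and distances, starts Glp1r earlier, so that the last 27 bases of its window lie within the gene as annotated there. Both are printed 5′ to 3′ with matches to the searched motifs in capitals.
Glp1r: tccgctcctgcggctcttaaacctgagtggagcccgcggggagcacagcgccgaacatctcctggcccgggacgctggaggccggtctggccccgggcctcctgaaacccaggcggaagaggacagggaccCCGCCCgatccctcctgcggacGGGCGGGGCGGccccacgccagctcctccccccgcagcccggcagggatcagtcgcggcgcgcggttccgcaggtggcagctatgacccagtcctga
Cck: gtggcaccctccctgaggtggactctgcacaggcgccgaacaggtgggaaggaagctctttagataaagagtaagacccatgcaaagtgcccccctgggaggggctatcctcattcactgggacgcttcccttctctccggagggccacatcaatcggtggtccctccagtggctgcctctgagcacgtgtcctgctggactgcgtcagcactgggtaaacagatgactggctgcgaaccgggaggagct
The capitals in the Glp1r sequence mark 3 GC boxes (GGGCGG on either strand), at 119, 97 and 92 bases before the start, of which the last 2 overlap by 1 base. Searched over the 300 bases from 250 before to 50 after the start, and on both strands, neither promoter held the NKX2-5 core TNAAGTG, the MEIS core TGACAG, the cyclic AMP response element TGACGTCA or the TATA box TATAAA. The Cck promoter held no GC box either. Among 32544 promoters of this length, 11.49% held the NKX2-5 core, 19.1% the MEIS core, 1.80% the cyclic AMP response element, 35.9% a GC box and 13.6% a TATA box. The GC content was 73.7% for Glp1r and 59.3% for Cck, against a median of 53.0% over all promoters (quartiles 46% and 61.7%). These letters are a description of the window, and binding elsewhere was not examined. The study itself mapped NKX2-5 binding in E11.5 hearts by ChIP-seq, and those regions were not used here.

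Glp1r was near the lower limit of the table in WT hearts. The authors' mean was 2.33 raw reads per heart, which corresponds to 7 reads over the 3 WT hearts, and only 1 listed row (Sst) had fewer WT reads. In Hypomorph hearts the authors' mean was 409 raw reads. Counting error alone allows a mean of 0.938 to 4.81 reads in WT hearts and of 386 to 432 reads in Hypomorph hearts (95% exact Poisson intervals on the sums over 3 hearts, which leave out all variation between hearts). The ratio of the raw means was 175, with a 95% exact interval of 84.7 to 437 for counting error only. The authors' normalized values, which are group means on a log2 scale around a baseline for each gene, were -4.96 in WT and 2.96 in Hypomorph hearts. Their difference was 7.93 on the log2 scale, a fold of 243. How these reads were divided among the 3 Hypomorph hearts is not given. Means of log2 values and means of raw reads respond differently to uneven hearts. The normalized difference exceeded that of the raw means by 0.47, against a median of 0.47 over all rows. This step mixes both groups, and the evenness of the hearts was not tested.

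Cck was near the lower quartile of the listed rows in WT hearts (42.3 raw reads) and above the median row in Hypomorph hearts (107 raw reads). The authors' mean was 42.7 raw reads in WT hearts (128 reads over 3 hearts) and 273 raw reads in Hypomorph hearts (819 reads). Counting error allows means of 35.6 to 50.7 and of 255 to 292 reads. The ratio of raw means was 6.40, with an exact counting interval of 5.31 to 7.77. The normalized values were -1.79 in WT and 1.30 in Hypomorph hearts, a difference of 3.08 on the log2 scale and a fold of 8.48. Unlike Glp1r, Cck thus had a measurable level in the WT group.

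Per kilobase of the longest annotated transcript, the genes differed widely in WT hearts and little in Hypomorph hearts. Glp1r, with a longest transcript of 1501 bases, had 1.55 raw reads per kb in WT and 272 in Hypomorph hearts. Cck, at 798 bases, had 53.5 and 342 raw reads per kb. The level of Cck per kb was 34.4 times that of Glp1r in WT hearts and 1.26 times in Hypomorph hearts. Among the 1542 rows with a transcript length, Glp1r stood at place 1540 by reads per kb in WT hearts and at place 401 in Hypomorph hearts, while Cck moved from place 867 to place 356. The median row had 77.8 reads per kb in WT and 46.7 in Hypomorph hearts. No other annotated gene overlaps either gene, on either strand.

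Set beside all other rows, Glp1r had the second largest difference of the table, after Xist, and Cck stood at place 8. All rows pass a fold of 1.5 by construction, 660 of them higher (41.9%) and 917 lower (58.1%) in Hypomorph hearts. The 2 genes fall among the 229 rows (14.5%) that were at least 2-fold higher and the 8 rows (0.507%) that were at least 8-fold higher. As both genes were picked for large rises, nothing is read from this. The median difference of the higher rows was 0.84 on the log2 scale, with an upper quartile of 1.13. By the ratio of raw means, without scaling between groups, Glp1r stood at place 1 and Cck at place 5.

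**Figure D1:**
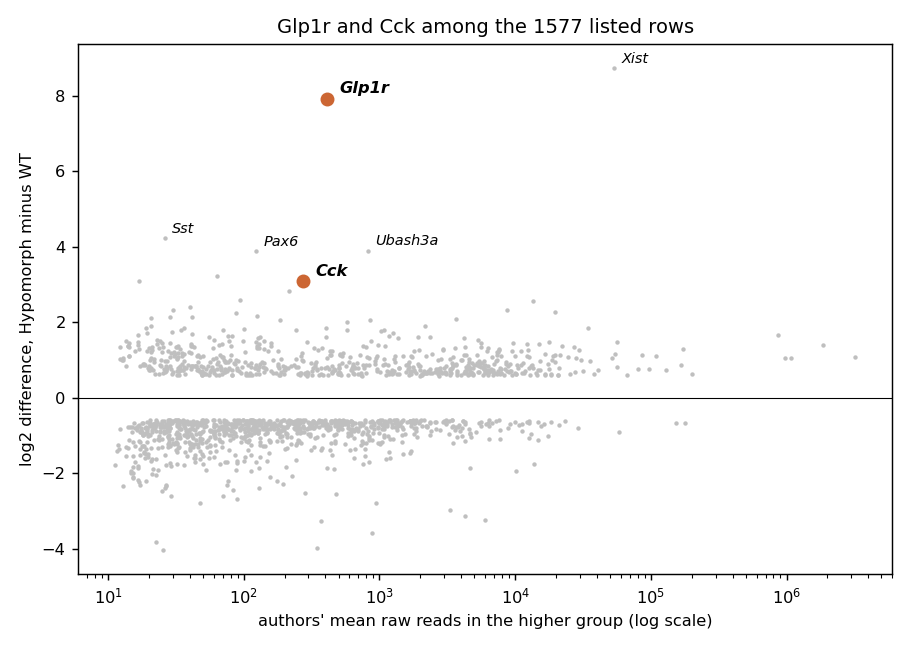
Each point is 1 of the 1577 listed rows, with the authors' mean raw reads in the higher group on the x axis (log scale) and the log2 difference of the authors' normalized values (Hypomorph minus WT) on the y axis. The empty band around 0 is the fold limit of 1.5. Glp1r at 7.93 stands apart from every row except Xist at 8.74, and Cck at 3.08 lies with a few rows above the main cloud.

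The genes nearest to each by size of difference, among protein-coding rows with at least 50 raw reads in the higher group, were few. The next below Glp1r was Ubash3a, a regulator of T cell receptor signalling, at 3.89 on the log2 scale (82.8 and 822 raw reads in WT and Hypomorph hearts), which is 4.04 lower. Pax6, a transcription factor of eye, brain and endocrine cells, followed at 3.87 (16.0 and 123 raw reads). Fgf8, a growth factor of the second heart field, was at 3.23 (10.7 and 63.4 raw reads), 0.14 above Cck. Below Cck came Pdia2, a protein disulfide isomerase, at 2.82, Fam71f2 at 2.60 and the metallothionein Mt2, a metal-binding protein, at 2.57. Glp1r had no close neighbour in size, whereas Cck lay 0.26 from Pdia2 and 0.14 from Fgf8.

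The difference from the authors' normalized values and that from the raw means differed by nearly the same step for both genes as for the table as a whole. This step was 0.47 on the log2 scale for Glp1r and 0.41 for Cck, against a median of 0.47 over all rows (quartiles 0.44 and 0.50), a factor of 1.38 between the groups. Xist, a long non-coding RNA made from the inactive X chromosome, had a step of 7.02. Its authors' means were 16340 raw reads in WT and 53613 in Hypomorph hearts, and Ddx3y, Uty, Kdm5d and Eif2s3y of the Y chromosome were not listed. The part that the sex of the embryos may have in the levels of Glp1r and Cck was not tested.

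In the mm9 annotation Glp1r lies at chr17:31038785-31073455 on the plus strand and Cck at chr9:121398943-121404807 on the minus strand. Nkx2-5, the gene altered in the Hypomorph line, lies on chromosome 17 as well, at chr17:26975609-26978510 on the minus strand, and the transcription start of Glp1r is 4.06 Mb from its own. Nkx2-5 was not among the listed rows. Ubash3a, the next below Glp1r among protein-coding rows with at least 50 reads, is also close to it on the chromosome, at chr17:31344818-31379147, 271 kb beyond the end of Glp1r and 4.37 Mb from the start of Nkx2-5. Of the 6 protein-coding genes annotated between them, 0 were listed. Pdia2 starts 0.642 Mb from Nkx2-5 on the other side. Npw, the precursor of the peptide neuropeptide W, starts 2.18 Mb away and had 5.05 raw reads in WT and 16.8 in Hypomorph hearts, a log2 difference of 3.09. Npw was singled out here after its values were seen, as was the neighbourhood of Nkx2-5 as a whole.

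Several of the largest differences thus lay near Nkx2-5, which is given as counts with no test. Of the 8 rows at least 8-fold higher in Hypomorph hearts, 3 (Glp1r, Ubash3a and Npw) started within 5 Mb of Nkx2-5, where 31 of the 1542 placed rows (2.01%) lie. Of the 6 largest rises among protein-coding rows with at least 50 reads, 3 (Glp1r, Ubash3a and Pdia2) started in that window, which holds 21 of 1103 such rows (1.90%). In the window 30 of 257 annotated protein-coding genes were listed (11.7%), compared with 39 of 549 (7.10%) on the rest of chromosome 17 beyond 10 Mb and 1404 of 21289 (6.60%) on other chromosomes. The rows in the window went in both directions, 18 higher (58.1%) and 13 lower, where 41.5% were higher on other chromosomes. At least 2-fold higher were 7 rows (22.6%) in the window and 14.7% of rows on other chromosomes. The median log2 difference was 0.64 in the window and -0.63 on other chromosomes, and the median size of the difference, whatever its direction, was 0.83 in both. Within 2 Mb of Nkx2-5 the median was -0.62, with 46.7% of rows higher and 13.3% at least 2-fold higher. Within 10 Mb these were -0.62, 42.2% and 15.6%, so the values of the 5 Mb window depended on its width. Apart from Glp1r, Ubash3a, Pdia2 and Npw, the 27 other rows in the 5 Mb window ran from -1.87 to 1.73. The listed rows next to Glp1r on the side of Nkx2-5 were also higher. They are Dnahc8, 3.78 Mb from Nkx2-5, at 1.73 (505 and 1252 raw reads), and Glo1, at 3.77 Mb, at 1.13 (12444 and 19789 raw reads). Both were named after their values were seen. In the same window 2 rows were at least 2-fold lower. Alleles this close to Nkx2-5 are mostly inherited together with it, so that the altered Nkx2-5 allele and sequence linked to it cannot be told apart for these rows. Cck, on chromosome 9, is not linked to Nkx2-5.

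**Figure D2:**
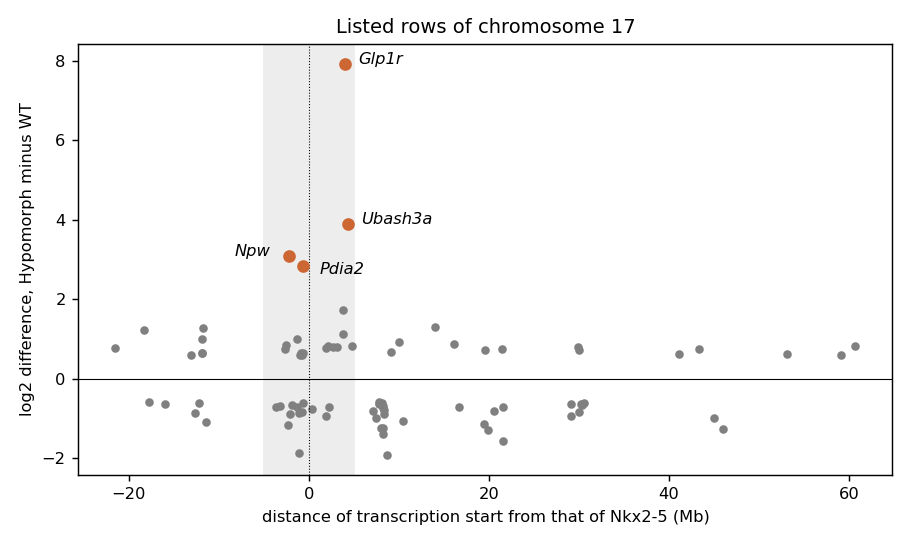
Each point is a listed row of chromosome 17, placed by the distance of its transcription start from that of Nkx2-5 (x axis, Mb) and by its log2 difference (y axis, Hypomorph minus WT). The grey band spans 5 Mb on either side of Nkx2-5. The 4 rows above 2 on the y axis, Glp1r, Ubash3a, Npw and Pdia2, all lie in the band, among rows that run from -1.87 to 1.73.

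Of 15 class B receptors, the family of Glp1r, 4 were listed, with Glp1r higher and the other 3 lower in Hypomorph hearts. The 11 not listed were not analysed here. Beside this count and those of the lists below stand the shares over all listed rows, 41.9% higher and 58.1% lower. As Glp1r was picked for its rise, nothing is read from its standing apart from the other 3. Gipr, the receptor for the other incretin hormone, had 698 raw reads in WT and 283 in Hypomorph hearts, a log2 difference of -0.87. Calcr, the calcitonin receptor, had 193 and 69.7 raw reads (-1.02), and Adcyap1r1, the receptor for the neuropeptide PACAP, had 1757 and 830 (-0.60). Ramp3, a partner of calcitonin-family receptors and the only listed member of its family of 3, had 127.5 and 47.7 raw reads (-0.94). Gipr and Adcyap1r1 were thus read far more often in WT hearts than Glp1r, as levels not set per length. These differences were lower under every scaling tried.

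The listed peptide genes were divided. Of 43 gut and neuroendocrine peptide genes, 5 were listed, and Cck and Sst were the 2 higher. Sst, the precursor of somatostatin, which restrains hormone release in gut and islet, had 1.33 raw reads in WT and 26.3 in Hypomorph hearts (4 and 79 reads over 3 hearts). The ratio of its raw means was 19.8, with an exact counting interval of 7.42 to 74.3, and its log2 difference was 4.23. The cardiac hormone Nppa, atrial natriuretic peptide, had 178388 raw reads in WT and 80838 in Hypomorph hearts, a log2 difference of -0.66. Pthlh, parathyroid hormone-like hormone, was at -0.66 (166 and 70.8 raw reads) and Agt, angiotensinogen, at -1.16 (28.2 and 9.28 raw reads). Gcg, the source of the ligand of Glp1r, was not among the listed rows and was not analysed here.

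Cckar, the receptor for cholecystokinin of gall bladder and pancreas, was lower, with 83.5 raw reads in WT and 41.3 in Hypomorph hearts and a log2 difference of -0.72. Cck and this receptor therefore differed in opposite directions. Cckbr was not among the listed rows. Of 24 gut peptide receptors looked for, 5 were listed, 3 higher and 2 lower. The somatostatin receptors Sstr4 (107 and 180 raw reads, 1.23) and Sstr5 (188 and 268 raw reads, 1.01) were higher, as Sst was. Sstr5 starts 1.34 Mb from Nkx2-5, in the 5 Mb window where the altered allele and sequence linked to it cannot be told apart. For neuropeptide Y receptors the values were split, with Npy1r at -1.03 (222 and 78.2 raw reads) and Npy2r at 1.15 (27.7 and 31.0 raw reads), though Npy2r flips to lower when the groups are scaled to the total of the listed rows.

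**Figure D3:**
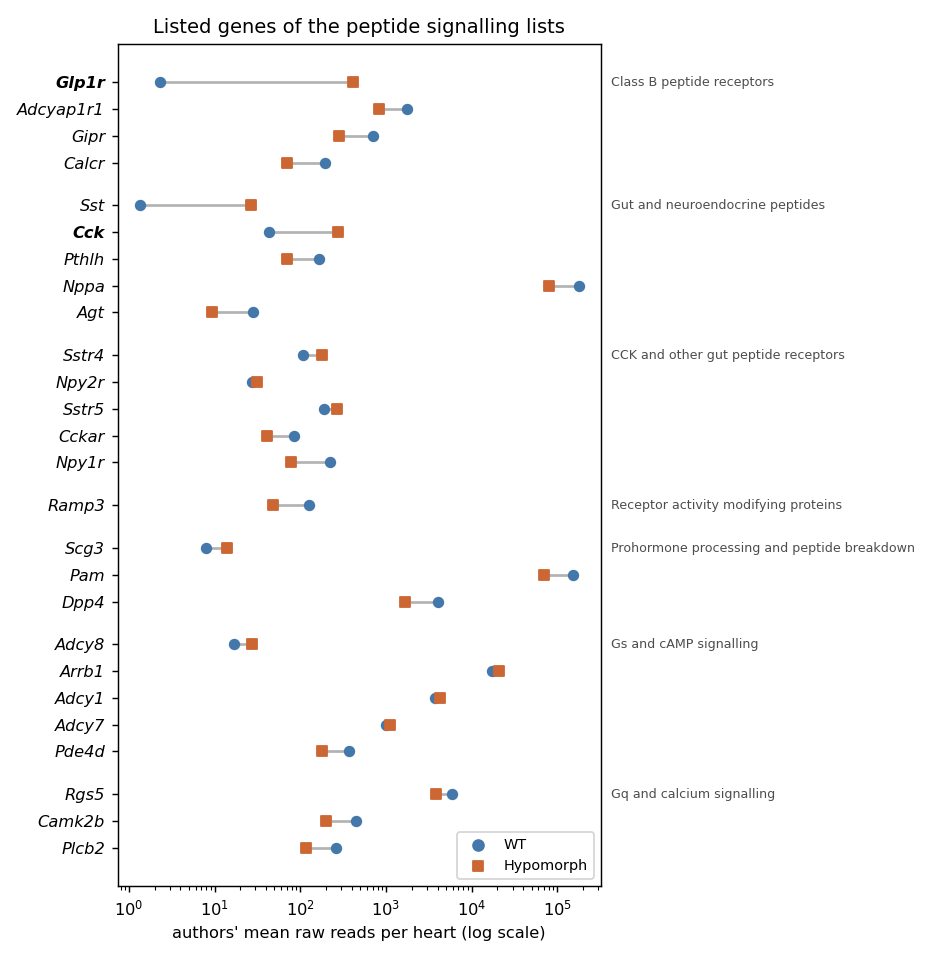
For each listed gene of the 7 peptide signalling lists, the circle gives the authors' mean raw reads in WT and the square that in Hypomorph hearts, on a log scale. Raw reads are not scaled between groups and not per length, so neither levels nor lengths of lines that run in opposite directions can be compared. Among the lines that run towards Hypomorph, those of Glp1r, Sst and Cck are the longest.

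Among 18 genes for the making and breakdown of peptides, 3 were listed. Dpp4, the protease that inactivates glucagon-like peptide 1, had 4027 raw reads in WT and 1647 in Hypomorph hearts, a log2 difference of -0.80. Pam, which amidates the end of cholecystokinin and many other peptides, had 153072 and 69439 raw reads (-0.67). Scg3, a protein of secretory granules, had 8.04 and 14 raw reads and a log2 difference of 1.38. The ratio of its raw means was 1.74, with a counting interval of 1.04 to 3.02.

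Downstream of the receptors, of 37 genes of Gs and cyclic AMP signalling 5 were listed, 4 of them higher. The adenylyl cyclases, which make cyclic AMP, were at 1.24 on the log2 scale for Adcy8 (17 and 27.5 raw reads), 0.64 for Adcy1 (3783 and 4310 raw reads) and 0.61 for Adcy7 (993 and 1112 raw reads). Arrb1, an arrestin that switches off activated receptors, was at 0.78, and Pde4d, which breaks down cyclic AMP, at -0.62. Adcy1, Adcy7 and Arrb1 flip to lower when the groups are scaled to the total of the listed rows. Of 22 genes of Gq and calcium signalling 3 were listed, Plcb2 at -0.67, Camk2b at -0.67 and Rgs5 at 0.96, and Rgs5 flips to lower also without scaling.

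Taking the 7 lists together without Glp1r and Cck, 24 of 160 genes were listed (15%), against 1486 of 22380 annotated protein-coding genes (6.64%). The lists were chosen with earlier results known, so nothing is read from this share. Of the 24, 10 were higher and 14 lower. The share higher, 41.7%, was close to the 41.9% of the whole table. Their median log2 difference was -0.64 and that of all rows -0.63. Of the 10 that were higher, 5 stayed higher when scaled to the total of the listed rows. By the ontology terms that the authors attach to genes, Glp1r and Cck share 1 term of 34 and 28, positive regulation of cell proliferation, which 33 rows carry, 16 of them higher. Of the 9 rows attached to hormone activity 3 were higher, with Cck second to Sst, and of the 58 rows attached to G protein-coupled receptor activity 25 were higher, with Glp1r first.

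Glp1r and Cck are also genes of pancreatic islet, gut endocrine cells and neurons, so markers of such cells were looked at in the same table. Of 13 enteroendocrine and islet markers only Pax6 was listed, and of 14 markers of foregut endoderm, lung and liver 0 were. Of 17 neural crest and neuron markers 4 were listed. Th, the first enzyme of catecholamine synthesis, had 69.5 and 124.5 raw reads in WT and Hypomorph hearts (log2 difference 1.31). Prph, an intermediate filament of peripheral neurons, had 14.5 and 20.8 raw reads (1.05), and Elavl3, a neuronal RNA-binding protein, had 94.7 and 40.9 (-0.81). Sox10, a neural crest factor, was at 0.62 and flips to lower when scaled to the total of the listed rows. The summed level of the 4 was 287 raw reads in WT and 309 in Hypomorph hearts. Of 10 eye and forebrain markers 4 were listed, with summed levels of 83.3 and 205 raw reads. Besides Pax6, Otx2, a transcription factor of the anterior brain, was at 1.35, and the crystallin Crybb3 was at -0.63. The part of these cells in the levels of Glp1r and Cck was not tested.

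Within the heart, markers of the sinoatrial node, the pacemaker, were mostly higher. The list of 16 genes for the node also held Gja5, which is low in the node itself. Of these 16 genes 6 were listed and 5 were higher in Hypomorph hearts. Hcn4, the main pacemaker channel, had 7019 and 12426 raw reads (log2 difference 1.27), Vsnl1, a calcium sensor, had 3476 and 6359 (1.33), and Isl1, a transcription factor of cardiac progenitors and the node, had 514 and 722 (1.14). Cacna2d2 (0.61), which encodes a calcium channel subunit, flips to lower when scaled to the total of the listed rows. Gja5, a gap junction protein of atrial and conducting muscle that the node itself largely lacks, was at -0.62 (23246 and 10822 raw reads). The summed level of the 6 was 52963 raw reads in WT and 51326 in Hypomorph hearts, and that of the 5 without Gja5 was 29717 and 40504. Of 9 atrial markers 3 were listed, Nppa at -0.66, Angpt1, a vascular growth factor, at -1.06 and Myl7, the atrial myosin light chain, at 0.63 with the same flip (176094 and 199161 raw reads), and their summed level was 367143 raw reads in WT and 284388 in Hypomorph hearts. Of 8 ventricular markers and of 8 markers of endothelium and endocardium 0 were listed.

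Blood markers also moved between the groups. Of 14 erythroid markers 13 were listed and all 13 were higher in Hypomorph hearts, with a median log2 difference of 1.11 and a range of 0.87 to 1.67, although Hbb-b1 and Alas2 flip to lower when scaled to the total of the listed rows. Among the largest were the embryonic globin Hbb-bh1 (1.67) and the erythroid transcription factors Gata1 (1.58) and Klf1 (1.46). Their summed level was 5713749.75 raw reads in WT and 8442609 in Hypomorph hearts. The 4 listed macrophage markers of 11 were lower, with summed levels of 4993 and 689.9 raw reads. They were the lysozymes Lyz1 (-3.59) and Lyz2 (-2.96), paralogs that can share reads, the mannose receptor Mrc1 (-0.97) and Aif1 (-0.89). The 1 listed epicardial marker of 7, Msln, was at -1.87. Msln starts within 5 Mb of Nkx2-5, where the altered allele and sequence linked to it cannot be told apart. The difference of Glp1r exceeds the largest of the erythroid markers by 6.26 on the log2 scale and that of Cck exceeds it by 1.42. Both genes were picked for large rises, so nothing is read from this excess. The part of these cells in the levels of Glp1r and Cck was not tested.

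**Figure D4:**
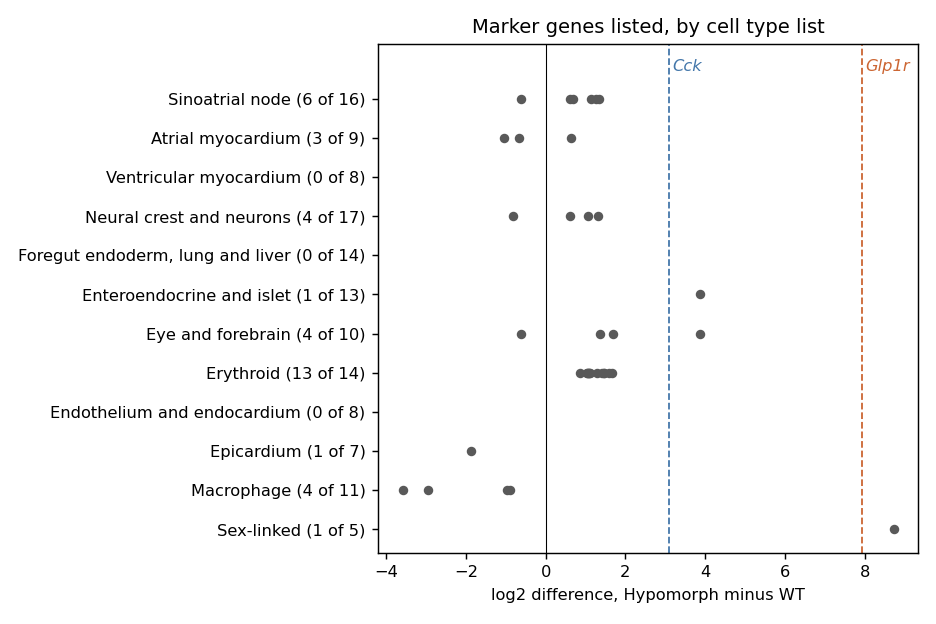
Points give the log2 difference (x axis, Hypomorph minus WT, the authors' normalized values) of each listed marker in 12 lists, with the number listed and looked for beside each list name. The dashed lines stand at Cck (3.08) and Glp1r (7.93). Only Pax6, at 3.87, and Xist, at 8.74, reach beyond the line of Cck.

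**Figure D5:**
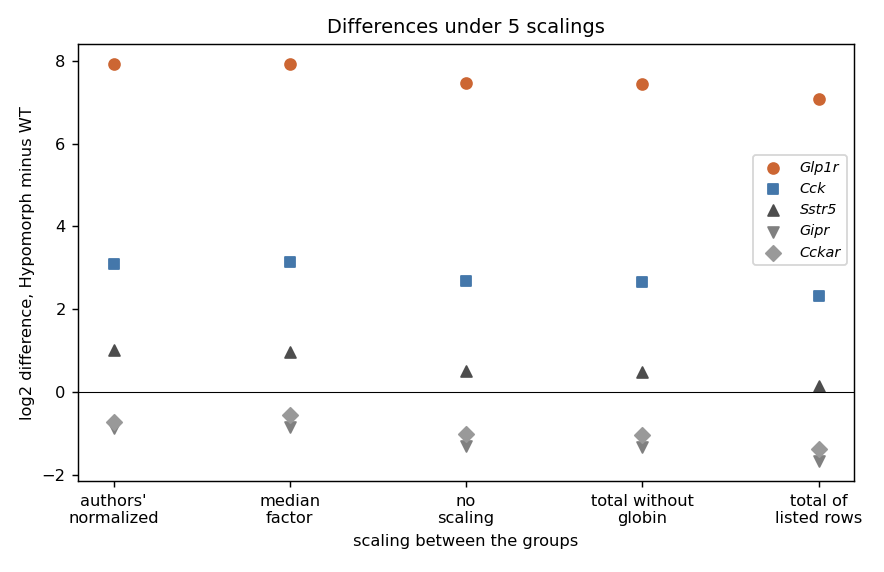
Log2 differences (y axis, Hypomorph minus WT) of Glp1r, Cck and 3 related receptors (Sstr5, Gipr and Cckar) under the authors' normalized values and 4 scalings of the raw means (x axis). Glp1r stays between 7.08 and 7.93 and Cck between 2.31 and 3.15, and the 5 genes keep the same order under each, Gipr lowest.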

How the data were processed

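Whole-heart RNA libraries (Truseq kit) were sequenced by the authors on a Genome Analyzer IIx, and reads were aligned to mm9 with TopHat. Reads per RefSeq gene were then taken in the Avadis NGS package. The submitters' processing notes also name CASAVA 1.4. The deposited raw values are estimated counts, averaged by the authors over the 3 hearts of a group and not scaled for depth. The deposited normalized values are log2 values that the authors averaged by group and set around a level particular to each gene. How they were normalized is not given in the sources used here. The table holds only genes past the authors' AC test, a test of read counts, and a fold change of 1.5. The authors' own fold changes are also in the table and were not used. The total reads per heart are unknown.

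Differences were computed here as Hypomorph minus WT normalized values. The planned edgeR test needs counts per heart and was not run. Counting intervals are exact Poisson intervals for sums and exact Clopper-Pearson intervals for ratios, at 95%, after rounding 3 times each mean to whole reads. They assume that each value is a mean over 3 hearts. Positions and transcript lengths came from GENCODE M1 (mm9) for 1542 of 1577 rows, and promoters from RefSeq for 2 of 2 genes. The functions were tested on simulated data. Named genes were Glp1r, Cck, the listed members of 7 pathway and 12 marker lists (for lists with more than 6 listed, the 4 with the largest log2 difference), and for each of the pair the 4 protein-coding rows with at least 50 reads nearest in log2 difference. A few marker genes that this rule selects are not reported here. The genes and lists were chosen with earlier results of these data known. The analysis of ontology terms, and of distance from Nkx2-5, was chosen after values were seen. Software was scipy 1.17.1, numpy 2.4.6, matplotlib 3.10.9 and pandas 2.3.3 under Python 3.11.15.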

Additional observations from a re-analysis of the deposited data

How the results depend on the processing

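Glp1r kept its direction under all 5 alternatives tried, with log2 differences of 6.94 (1 read added to each raw mean) to 7.92 (the median factor of the table), which stayed within the width of its counting interval. Cck also kept its direction, at 3.08 with the authors' values and 3.15 with the median factor. It was at 2.68 without scaling, 2.31 with the total of the listed rows, 2.66 with that total without globin genes and 2.65 with 1 read added. The counting interval of the raw ratio was 2.41 to 2.96 on the log2 scale for Cck and 6.41 to 8.77 for Glp1r. The interval of Cck is the narrower, so the same shifts take up more of its width. Against the median factor, no scaling shifts every row by -0.47 and the total by -0.84 on the log2 scale, by construction. The place of Glp1r by difference went from 2 to 1 over protein-coding rows only and without scaling. That of Cck went from 8 to 7 over protein-coding rows, to 6 with at least 50 reads and to 5 with at least 100 reads or without scaling. The number of rows higher in Hypomorph hearts by 1.5-fold, 660, was 174 without scaling, 229 at a fold of 2 and 520 with at least 50 reads. That of pathway genes, 12, was 6, 8 and 8. The fold of 2 and the 50 reads are stricter criteria on the same list. Without scaling, the 1.5-fold limit was instead set on the ratio of raw means, which lacks the median factor of 1.38 between the groups. The 31 rows within 5 Mb of Nkx2-5 became 15 within 2 Mb, 45 within 10 Mb and 22 with at least 50 reads, settings added after the data were seen. No paired analysis was possible because only group values were deposited, and for this reason no heart could be left out either. Genes that were not listed cannot be gained under any setting.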

Other observations

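Rows were also counted by ontology term, members of the lists above included. For comparison, 41.9% of all listed rows were higher, and the median log2 difference of all rows was -0.63. Of the 15 rows attached to the neuropeptide signaling pathway, 8 were higher and 7 lower in Hypomorph hearts, with a median log2 difference of 0.59. Of the 73 rows attached to the G protein-coupled receptor signaling pathway, 29 were higher and 44 lower (median -0.64), and the 2 largest differences among them were those of Glp1r and Npw, both on chromosome 17 within 5 Mb of Nkx2-5.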
